A study of Mus musculus with 4 samples.

Results

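The genes described here encode the enzymes and carriers that break glucose down, handle its product lactate and store glucose as glycogen. The 35 genes were taken by symbol from the deposited array table, and all 35 were measured among 22305 named genes. RNA came from primary rib chondrocytes, the cells of cartilage, isolated from newborn mice of a mixed C57B6/129Sv background at 0.5 days of age and kept overnight in DMEM with 10% fetal calf serum. Of the 4 arrays (Affymetrix Mouse Gene ST 1.0), 2 were hybridised with RNA of wild-type chondrocytes (Wt) and 2 with RNA of chondrocytes lacking Eed through a conditional knockout (Eed cKO). Eed is a core subunit of Polycomb repressive complex 2, which places the repressive H3K27me3 mark on chromatin. Per the study's methods the cKO genotype was Col2-Cre:Eed fl/fl, with Cre driven by a mouse Col2a1 promoter, so that Cre acts in cells in which that promoter is or was active. The labels call the controls wild-type and do not say whether they carried floxed Eed or Cre, nor how many pups gave the cells of an array.

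In glycolysis, glucose is trapped as a phosphate, split into a pair of 3-carbon sugars and oxidised to pyruvate, with a net gain of ATP that needs no oxygen. Pyruvate is then either reduced to lactate, which leaves the cell, or sent to mitochondria through pyruvate dehydrogenase, which the Pdk kinases switch off. In the body, cartilage has no blood vessels, its chondrocytes live at low oxygen, and they rely largely on glycolysis and keep glycogen stores. The cells of the arrays had been cultured overnight, and the study's main methods give no oxygen level for that culture. Many of these genes are known targets of the hypoxia-inducible factor Hif1a.

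Values are intensities on a linear scale, whose array medians lay between 830 and 837. A difference is Eed cKO minus Wt on the log2(intensity + 32) scale, tested with limma across 14944 genes kept above an intensity of about 623, and "rose" or "fell" is written where the Benjamini-Hochberg adjusted p was under 0.05. Eed itself gave 3597 and 3530.4 in Wt and 1057 and 990.3 in Eed cKO, a difference of -1.77 (SE 0.07, adjusted p = 7.03e-05). Hif1a gave 19548 and 20230.0 in Wt and 16258 and 16673 in Eed cKO and fell by 0.27 (SE 0.03, adjusted p = 0.00295). All 9 chondrocyte markers lay above the filter, with a summed intensity of 234911 to 238375 in Wt and 229538 to 232349 in Eed cKO, and 1 of them rose and 2 fell. All 4 measured osteoblast markers rose, from a summed 12772 to 15041 in Wt to 25570 to 32432 in Eed cKO, and of 8 fibroblast or perichondrium markers 4 rose and 1 fell, with sums of 88085 to 94286 and 96695 to 104831. The part of these marker shifts in the differences below was not tested. In bulk RNA more or fewer cells of a type cannot be told apart from more or less RNA per cell, in the chondrocytes too. The study reports that Eed cKO chondrocytes become hypertrophic, post-mitotic cells earlier. Whether such chondrocytes made the RNA of the osteoblast list was not tested. Xist, the RNA of the inactive X, gave 17820 and 3634 in Wt and 4845 and 17196 in Eed cKO, so that its high and low arrays crossed the groups. The Y-linked Ddx3y gave 192 and 4664 in Wt and 4324 and 622 in Eed cKO, high where Xist was low. The arrays thus differed in their share of female and male cells, within each group and between arrays of the same number.

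Among the members, 14 fell, 4 rose and 17 did not pass the test. The members were chosen with earlier results of these data known, so that their counts and shares are descriptions only. Over all tested genes 6.0% fell, 9.63% rose and 15.6% did either, so that 40.0% of the members fell where 6.0% of all genes did, while 11.4% rose. Both Eed cKO arrays lay below both Wt arrays for 24 members, against 29.1% of all genes, and above them for 5 members, against 31.1%. The members' median difference was -0.11, beside 0.00 over all tested genes. Of the 2628 tested genes at least as bright as the median member (an intensity of 7055), 11.3% fell and 7.95% rose, and of the 18 members that bright 8 fell. The unpaired test of the study's methods does not share the variance across genes as limma does. Its unadjusted p was under 0.05 for 14 members lower and 3 higher in Eed cKO. Over all tested genes these counts were 1201 and 1740. Its 14 lower members were not the same genes as the 14 that fell. In this test Pfkm, Pkm2 and Tkt, which limma did not call, had adjusted p of 0.223, 0.252 and 0.175. Those of Tpi1, Pfkfb3 and Ugp2, which fell, were higher (0.255, 0.306 and 0.281). After Benjamini-Hochberg adjustment 0 members passed this test (adjusted p from 0.163 to 0.315 for the 18 that limma called).

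**Figure D1:**
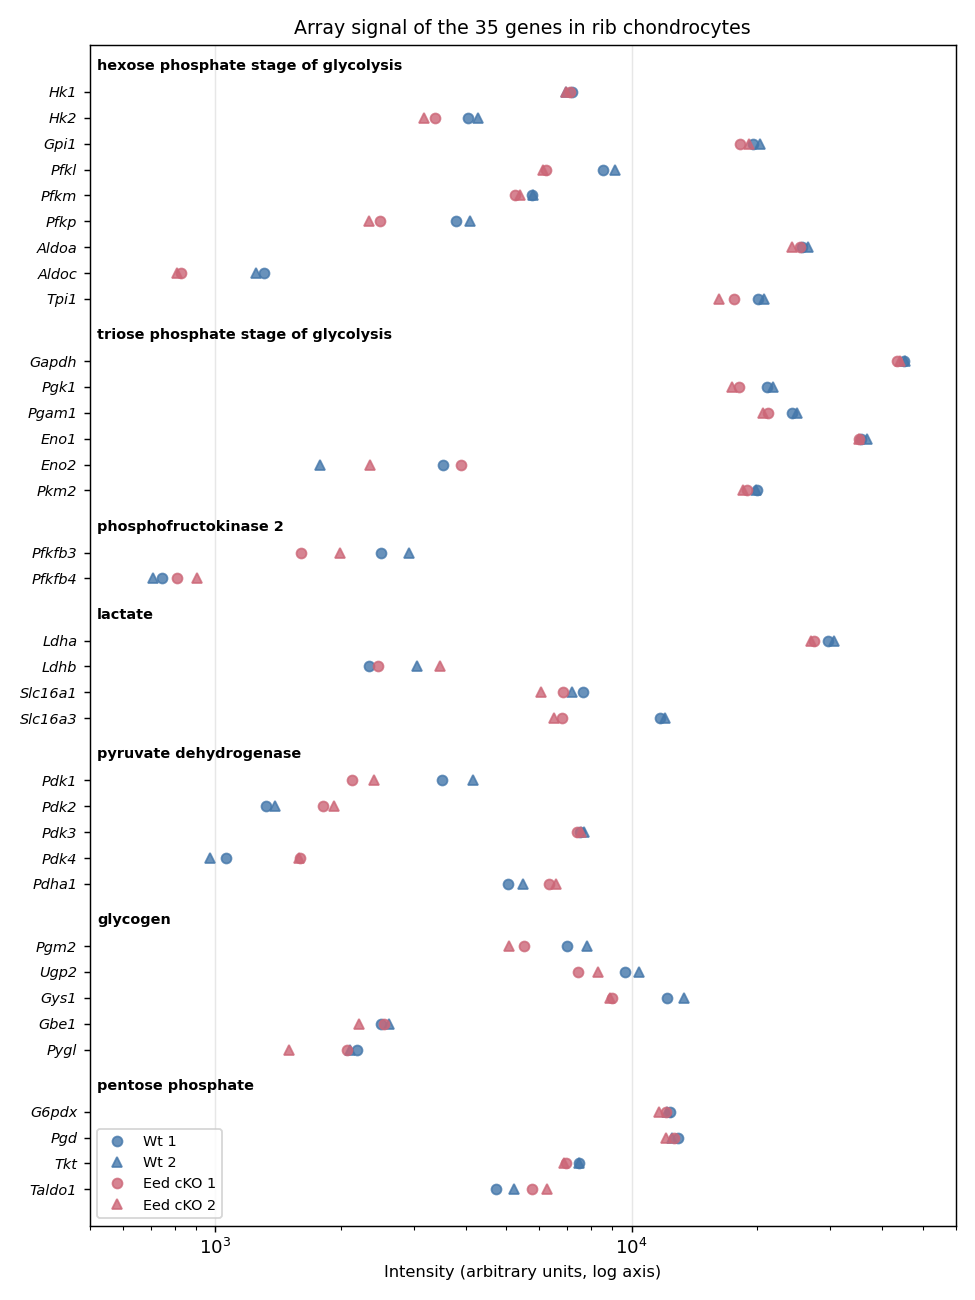
Intensity (log scale) of each of the 35 members on the 4 arrays, grouped by branch of the pathway, with 2 Wt and 2 Eed cKO points a gene. The Eed cKO points lie below the Wt points without overlap for 24 genes, among them Slc16a3, Pdk1 and Pfkp, and above them for 5, among them Pdk2 and Pdk4.

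Promoter windows of 6 members are shown because many of these genes are known Hif1a targets. All 35 members were matched by symbol to promoter windows of RefSeq genes (mouse assembly GRCm38.p6), each running 250 bases before to 50 bases after a start. The windows were searched on both strands for ACGTG and GCGTG, the core of the hypoxia response element, and matches are in capitals. The windows below belong to Slc16a3, Pdk1, Pfkp and Ldha, which fell, to Gys1, which fell and holds neither motif, and to Pdk4, which rose. For Pdk1 and Ldha the first of 2 windows is given, and the second held 0 matches for Pdk1 and 2 for Ldha.
Slc16a3 promoter, chr11:120948817-120949116, plus strand: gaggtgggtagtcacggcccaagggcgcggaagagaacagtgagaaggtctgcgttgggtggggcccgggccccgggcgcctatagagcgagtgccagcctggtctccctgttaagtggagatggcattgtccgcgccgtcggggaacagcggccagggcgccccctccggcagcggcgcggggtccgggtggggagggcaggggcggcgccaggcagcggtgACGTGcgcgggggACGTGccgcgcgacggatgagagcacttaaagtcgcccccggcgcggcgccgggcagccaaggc
Pdk1 promoter, chr2:71872974-71873273, plus strand: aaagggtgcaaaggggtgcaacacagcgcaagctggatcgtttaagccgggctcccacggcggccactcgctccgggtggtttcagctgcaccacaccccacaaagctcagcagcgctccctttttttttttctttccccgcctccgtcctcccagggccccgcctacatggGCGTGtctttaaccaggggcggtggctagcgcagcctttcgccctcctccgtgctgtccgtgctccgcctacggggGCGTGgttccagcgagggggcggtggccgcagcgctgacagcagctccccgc
Pfkp promoter, chr13:6648722-6649021, minus strand: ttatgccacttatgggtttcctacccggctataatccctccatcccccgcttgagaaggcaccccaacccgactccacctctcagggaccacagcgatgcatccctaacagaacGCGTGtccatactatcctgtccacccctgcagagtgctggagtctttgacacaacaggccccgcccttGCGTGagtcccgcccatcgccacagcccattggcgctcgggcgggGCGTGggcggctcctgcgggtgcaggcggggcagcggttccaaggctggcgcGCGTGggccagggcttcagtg
Ldha promoter, chr7:46845554-46845853, plus strand: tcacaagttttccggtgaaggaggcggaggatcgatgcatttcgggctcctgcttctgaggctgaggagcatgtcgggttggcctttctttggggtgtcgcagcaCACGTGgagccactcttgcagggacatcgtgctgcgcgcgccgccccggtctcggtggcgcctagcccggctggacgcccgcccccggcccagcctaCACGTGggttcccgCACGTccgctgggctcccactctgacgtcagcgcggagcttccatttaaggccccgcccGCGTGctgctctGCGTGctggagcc
Gys1 promoter, chr7:45434589-45434888, plus strand: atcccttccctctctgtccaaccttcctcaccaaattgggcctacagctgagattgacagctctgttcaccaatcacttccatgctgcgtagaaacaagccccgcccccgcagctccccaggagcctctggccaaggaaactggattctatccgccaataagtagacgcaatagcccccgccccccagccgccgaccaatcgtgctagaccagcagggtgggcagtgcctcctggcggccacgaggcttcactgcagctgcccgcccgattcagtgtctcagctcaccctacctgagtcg
Pdk4 promoter, chr6:5496229-5496528, minus strand: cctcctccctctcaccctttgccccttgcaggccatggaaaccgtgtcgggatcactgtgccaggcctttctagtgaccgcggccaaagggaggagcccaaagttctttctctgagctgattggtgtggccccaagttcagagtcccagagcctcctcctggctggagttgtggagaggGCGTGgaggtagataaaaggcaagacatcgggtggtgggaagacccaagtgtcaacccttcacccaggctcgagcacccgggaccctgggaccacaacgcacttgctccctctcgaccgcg

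The Slc16a3 window held 2 matches, both of ACGTG, and the Ldha window held 7, of which 5 were ACGTG. A palindromic CACGTG counts on both strands. It was also found in windows not shown, of Pfkfb3, which fell, Pdk2, which rose, and Pfkm and Slc16a1, which did not pass. In the shares below a gene counted if any of its windows held the motif, and the number of windows per gene was not matched. The Pfkp window held 4 matches and the first Pdk1 window 2, all of GCGTG, while the Pdk4 window held 1, also of GCGTG. A window with ACGTG was found for 19 of 35 members (54.3%), against 28.4% of the 10978 tested genes with a window and 21.8% of all 27025 genes of the table. Of the members that fell, 9 of 14 (64.3%) held ACGTG, of those that did not pass 9 of 17 (52.9%), and of those that rose 1 of 4. With GCGTG counted too, the shares were 12 of 14, 14 of 17 and 4 of 4, against 65.2% of the tested genes. A match is a description of these letters in this stretch and says nothing on binding of the factor.

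In the hexose phosphate stage of glycolysis, where glucose is phosphorylated and split, 5 of 9 members fell and 4 did not pass. The largest difference was that of Pfkp, the platelet-type subunit of phosphofructokinase, the committed step. It gave 3782 and 4087 in Wt and 2486 and 2336 in Eed cKO, and its mean in Eed cKO was 0.613 of that in Wt, with a difference of -0.70 (SE 0.07, adjusted p = 0.00127). Pfkl, the liver-type subunit, gave 8526 and 9121 in Wt and 6232 and 6119.7 in Eed cKO, a difference of -0.51 (SE 0.05, adjusted p = 0.00125). Both subunits fell with a wide gap between the groups. The muscle-type subunit Pfkm gave 5752 and 5788 against 5241 and 5392, a difference of -0.12 (95% interval -0.23 to -0.00, adjusted p = 0.158), which did not pass although the groups did not overlap.

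Aldoc, the brain-type aldolase that splits fructose 1,6-bisphosphate, gave 1311 and 1249.7 in Wt and 829.8 and 809 in Eed cKO and fell by 0.62 (SE 0.08, adjusted p = 0.00277). The widely expressed aldolase Aldoa gave 25653 and 26550.0 against 25356 and 24326, a difference of -0.07 (95% interval -0.15 to 0.01, adjusted p = 0.198). The groups did not overlap for either aldolase. Hk2, the inducible hexokinase that phosphorylates glucose, gave 4045 and 4272 in Wt and 3375 and 3181 in Eed cKO and fell by 0.34 (SE 0.06, adjusted p = 0.0134). Without Wt 2 its adjusted p was 0.0875. The constitutive hexokinase Hk1 gave 7208 and 6949.9 against 7109 and 6958, with overlapping groups and a 95% interval of -0.12 to 0.10. Tpi1, which interconverts the triose phosphates, fell from 20119.6 and 20862 to 17613 and 16225, by 0.28 (SE 0.05, adjusted p = 0.00846; 0.0528 without the intensity trend). Gpi1, the glucose phosphate isomerase, gave 19558 and 20395 against 18195 and 19201, a difference of -0.10 (adjusted p = 0.151).

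In the triose phosphate stage, where ATP is gained, 2 of 6 members fell and 4 did not pass. Pgk1, which makes the first ATP of the path, gave 21099 and 21881 in Wt and 18084 and 17390.0 in Eed cKO and fell by 0.28 (SE 0.04, adjusted p = 0.00322). Pgam1, the phosphoglycerate mutase, gave 24322 and 24960.3 in Wt and 21313 and 20746 in Eed cKO and fell by 0.23 (SE 0.03, adjusted p = 0.00381). Both genes have 3 probe sets, of which 2 hold identical values on every array. Each of the 2 distinct sets of values passed for both genes, but without the intensity trend the adjusted p of Pgam1 was 0.0534. Gapdh, the dehydrogenase often used as a reference gene, gave 45073 and 45491 against 43301 and 44097, close to the highest intensity on the arrays (50696 to 52469). Its difference was -0.05 (95% interval -0.10 to -0.00, adjusted p = 0.158), and its 26 probe sets, with 19 distinct sets of values, had adjusted p from 0.0647 to 0.344. Gapdh, Pgam1, Eno1 and Ldha have near-identical pseudogene copies in the mouse genome, with which their probe sets can share signal. For the members with several probe sets, Pgk1 and Ldhb included, which one lies at the gene itself was not determined. Probe sets of one gene are therefore not independent measurements, since they can pick up the same RNA.

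Eno1, the enolase of most tissues, gave 35669.9 and 36734 in Wt and 35115 and 35110.3 in Eed cKO on its brightest probe set, a difference of -0.04 (95% interval -0.10 to 0.01, adjusted p = 0.284). Another of its 3 probe sets gave 31048 and 31630.0 against 27797 and 27272, a difference of -0.19 (adjusted p = 0.00456), so that the call depended on the probe set. Eno1 was counted as not passed from its brightest probe set, and which of the 3 lies at the Eno1 gene itself was not determined. Pkm2, the pyruvate kinase named Pkm in RefSeq, gave 19964 and 19857 against 18991 and 18478, a difference of -0.09 (95% interval -0.16 to -0.02, adjusted p = 0.103). The neuronal enolase Eno2 varied more between arrays of one group than between groups, with 3533 and 1782 in Wt and 3888 and 2353 in Eed cKO, where both arrays numbered 1 were the higher. Its difference of 0.27 had a 95% interval of -0.51 to 1.04 and did not pass (adjusted p = 0.641), but without Wt 1 it was 0.75 (adjusted p = 0.0356).

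Phosphofructokinase 2 enzymes make and remove fructose 2,6-bisphosphate, the strongest activator of phosphofructokinase. Pfkfb3, the member whose kinase activity prevails, gave 2497 and 2922 in Wt and 1607 and 1992 in Eed cKO and fell by 0.59 (SE 0.12, adjusted p = 0.0190). Without Wt 2 its adjusted p was 0.0521. Pfkfb4 lay the other way, at 746 and 708 in Wt and 809.5 and 906 in Eed cKO, with both Eed cKO arrays above both Wt arrays, but its difference of 0.23 did not pass (95% interval 0.02 to 0.44, adjusted p = 0.136).

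The lactate genes held the member with the largest fall. Slc16a3, the carrier MCT4 that exports lactate from glycolytic cells, gave 11687 and 12064 in Wt and 6796 and 6513 in Eed cKO. Its mean was 11876 ± 266 in Wt and 6655 ± 200.2 in Eed cKO (SD, n = 2 each), a ratio of 0.56, with a difference of -0.83 (SE 0.04, adjusted p = 0.000140). It ranked 21 from the lowest difference among the 14944 tested genes. Slc16a1, the carrier MCT1 that moves lactate in either direction, gave 7627 and 7196 against 6836 and 6045. Its difference of -0.20 did not pass (95% interval -0.36 to -0.04, adjusted p = 0.0924). With each array left out in turn, the difference of Slc16a1 lay between -0.29, without cKO 1, and -0.12, so that whether it passed depended on the arrays used.

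Ldha, the subunit that favours the step from pyruvate to lactate, gave 29624 and 30634 in Wt and 27361 and 27002 in Eed cKO and fell by 0.15 (SE 0.03, adjusted p = 0.0142). This was the smallest difference among the members that passed. Without Wt 2 the adjusted p of Ldha was 0.0807, and without the intensity trend in the variance it was 0.141. Ldhb, the subunit that favours the way back, gave 2338 and 3054 in Wt and 2466 and 3475 in Eed cKO, and both arrays numbered 2 were the higher. Its groups overlapped, with a difference of 0.13 (95% interval -0.29 to 0.55).

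The genes around pyruvate dehydrogenase moved in both directions, with 3 of 5 members up and 1 down. Pdk1, the kinase that hypoxia is known to induce and that shuts pyruvate dehydrogenase off, gave 3500.4 and 4153 in Wt and 2133 and 2408 in Eed cKO. Its difference of -0.74 (SE 0.10, adjusted p = 0.00390) ranked 36 from the lowest of all tested genes. Pdk4, the kinase known to rise on fasting, gave 1059.8 and 973 in Wt and 1599.6 and 1591 in Eed cKO, a ratio of means of 1.57 and a difference of 0.64 (SE 0.08, adjusted p = 0.00287). Pdk2, a widely expressed kinase of the family, gave 1324 and 1390.3 in Wt and 1818 and 1924 in Eed cKO and rose by 0.45 (SE 0.07, adjusted p = 0.00862). Kinases of one substrate therefore moved in opposite directions without overlap of the arrays, Pdk1 down and Pdk2 and Pdk4 up. Pdk3 gave 7537 and 7703 against 7376 and 7571, with a 95% interval of -0.13 to 0.08.

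Pdha1, the catalytic subunit that these kinases phosphorylate, gave 5052 and 5496 in Wt and 6326 and 6595 in Eed cKO and rose by 0.29 (SE 0.06, adjusted p = 0.0181). Pdha1 is X-linked, as are Pdk3, Pgk1 and G6pdx, and its 2 Wt arrays and 2 Eed cKO arrays each held 1 array with high and 1 with low Xist. Without Wt 1, Pdk2 had an adjusted p of 0.0532 and Pdha1 of 0.0984. Taldo1 was lost as well (0.192), so that of the 4 members that rose Pdk4 alone kept its call, and Eno2 gained one (0.0356).

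**Figure D2:**
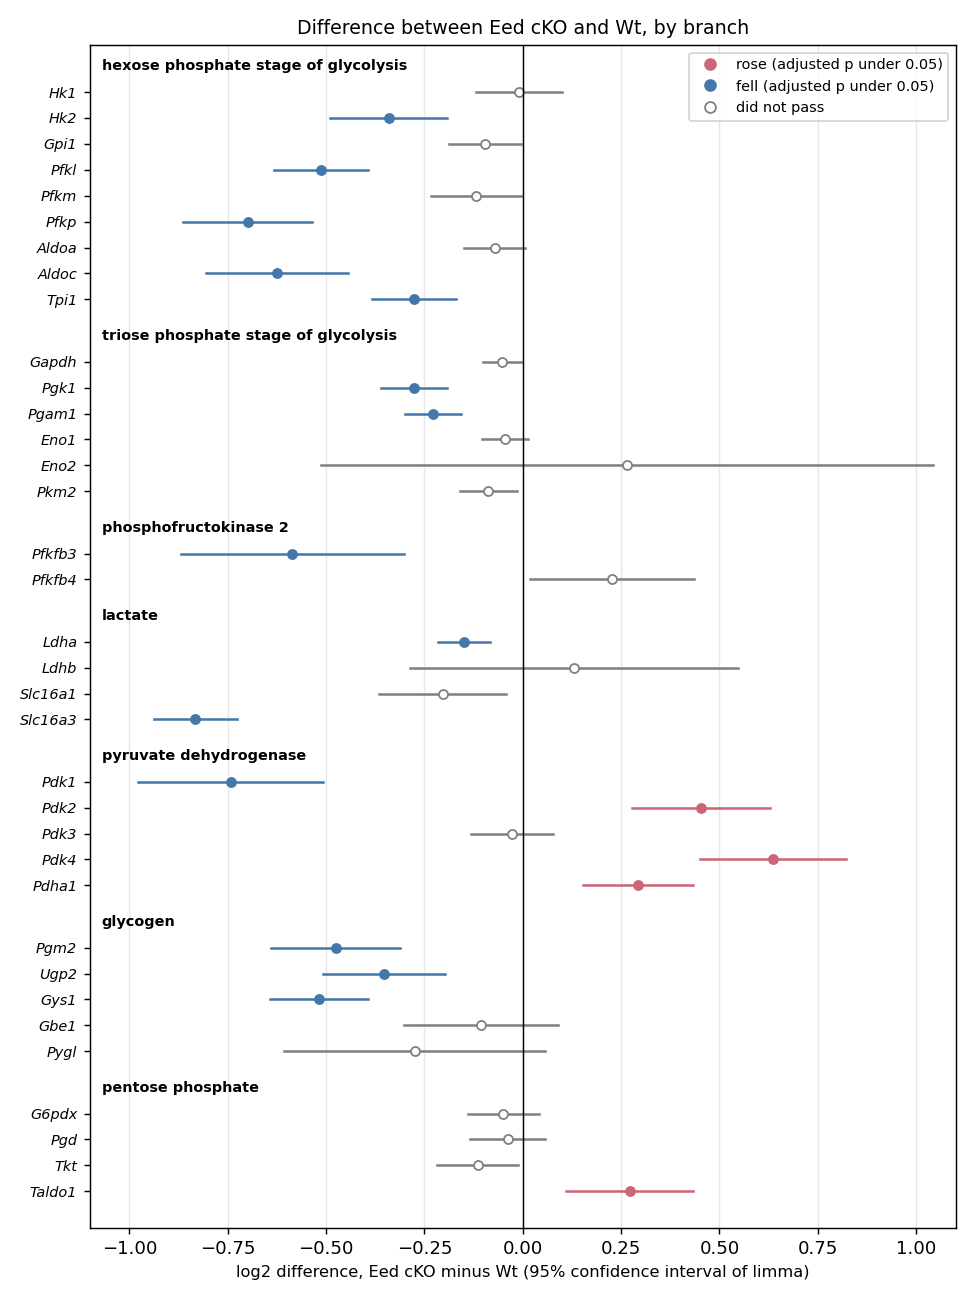
Fitted log2 difference (Eed cKO minus Wt) of each member with its 95% confidence interval, coloured by call and grouped by branch. The differences run from -0.83 for Slc16a3 to 0.64 for Pdk4, and the interval of Eno2, from -0.51 to 1.04, is the widest.

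Of the 5 glycogen members, 3 fell and 2 did not pass, and the 3 stand one after the other on the way into glycogen. The phosphoglucomutase that the array table calls Pgm2, named Pgm1 in RefSeq, converts glucose 6-phosphate to glucose 1-phosphate, and it gave 6998 and 7800.3 in Wt and 5529.8 and 5087 in Eed cKO, a difference of -0.48 (SE 0.07, adjusted p = 0.00550). Ugp2, which makes UDP-glucose for glycogen and also for the sugar chains of cartilage matrix, gave 9653 and 10413 in Wt and 7417 and 8305 in Eed cKO, a difference of -0.35 (SE 0.07, adjusted p = 0.0137). Gys1, the glycogen synthase of tissues other than liver, gave 12154 and 13395 in Wt and 8956 and 8857 in Eed cKO, a difference of -0.52 (SE 0.05, adjusted p = 0.00137). The Eed cKO arrays lay below the Wt arrays for all 3. The mean of Gys1 was 12775 ± 878 in Wt and 8907 ± 69.9 in Eed cKO (SD, n = 2 each).

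The other glycogen members did not pass. Gbe1, the branching enzyme, gave 2507 and 2610.2 in Wt and 2547 and 2215 in Eed cKO, with overlapping groups and a 95% interval of -0.30 to 0.09. Pygl, the liver-type phosphorylase that releases glucose 1-phosphate from glycogen, gave 2186 and 2105 against 2078 and 1503, where the second Eed cKO array was apart from the other 3. Its difference was -0.27 (95% interval -0.61 to 0.06, adjusted p = 0.240), which rested on that array, since it was -0.50 without cKO 1 (adjusted p = 0.00533) and -0.05 without cKO 2 (adjusted p = 0.720).

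The pentose phosphate path makes NADPH and ribose from glucose 6-phosphate, and 1 of its 4 members rose and 3 did not pass. G6pdx and Pgd, the NADPH-making enzymes, had differences of -0.05 (95% interval -0.14 to 0.04) and -0.04 (95% interval -0.13 to 0.06). Tkt, the transketolase, gave 7477 and 7491 against 6957 and 6869, a difference of -0.11 (95% interval -0.22 to -0.01, adjusted p = 0.129). Taldo1, the transaldolase, gave 4736 and 5224 in Wt and 5772 and 6262 in Eed cKO and rose by 0.27 (SE 0.07, adjusted p = 0.0394). The call was lost under several alternatives, with an adjusted p of 0.192 without Wt 1, of 0.0898 without cKO 2 and of 0.0809 without the intensity trend.

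**Figure D3:**
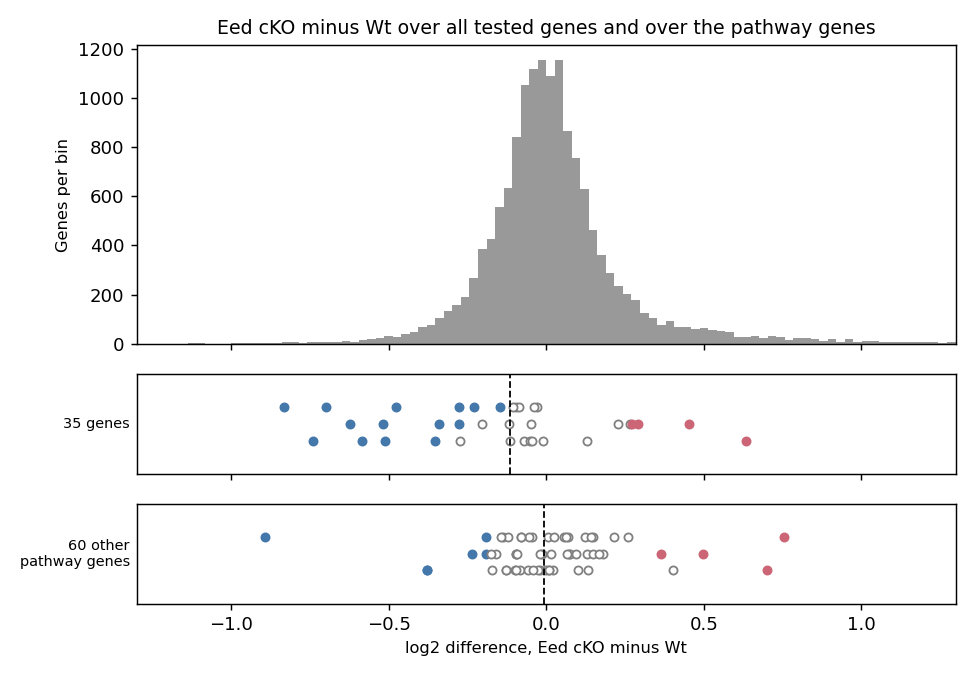
Log2 differences (Eed cKO minus Wt) of the 14944 tested genes as a histogram in genes per bin, and of the 35 members and 60 other pathway genes as points, blue for fell, red for rose and open for not passed, with each list's median dashed. The median of the members lies at -0.11 and that of all tested genes at 0.00, and 68 genes lie outside the plotted range of -1.3 to 1.3.

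Since the members held several genes for one step, isozymes were compared within each array, where the brightness of a probe set cancels between groups. The within-array log2 difference of Pdk4 to Pdk1 was 1.38 higher in Eed cKO than in Wt, and that of Pdk2 to Pdk1 was 1.20 higher. The difference of Pfkfb3 to Pfkfb4 was 0.81 lower in Eed cKO, that of Slc16a3 to Slc16a1 0.63 lower, that of Pfkp to Pfkm 0.58 lower and that of Aldoc to Aldoa 0.55 lower. The values of the 2 groups did not overlap for 10 of the 12 pairs, which are not separate measurements, since Pdk1 stands in 3 pairs and the phosphofructokinase subunits share 3. Among single tested genes the arrays did not overlap for 29.1% (Eed cKO lower) and 31.1% (Eed cKO higher). No such share was computed for pairs of other genes. Each pair value follows from the differences of its 2 members given above, so that it adds no separate result. The pairs with overlap were Eno2 to Eno1 and Ldhb to Ldha, in which the arrays of one number moved together. With 2 arrays a group, the two-sided exact permutation test cannot give a p below 0.333, and the 10 pairs without overlap reached it (0.40 after adjustment over the 12 pairs).

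**Figure D4:**
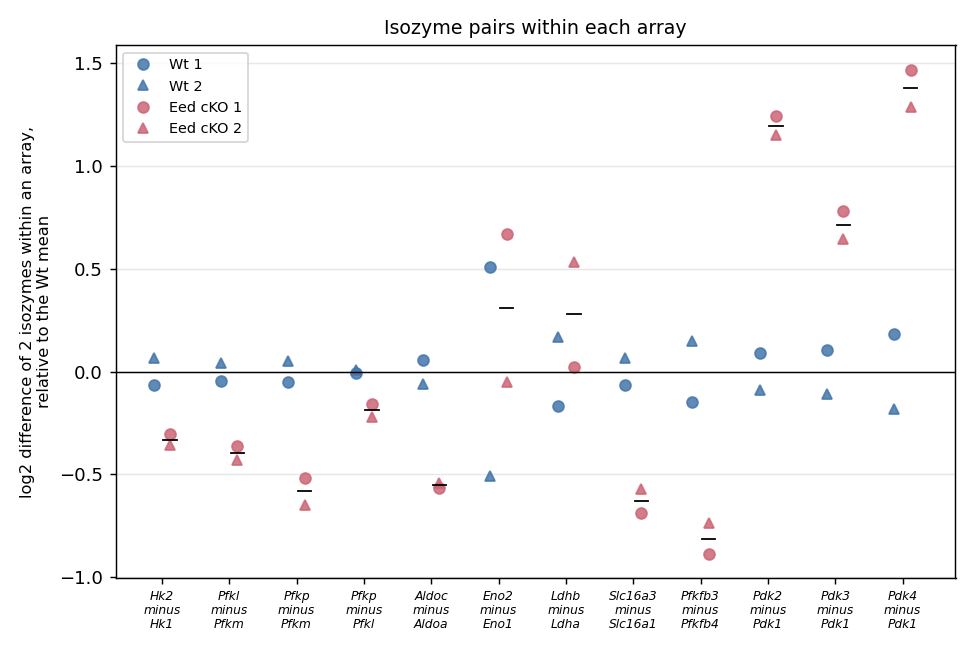
Within-array log2 difference between the isozymes of 12 pairs on each of the 4 arrays, with Wt and Eed cKO marked by colour. The Pdk4 to Pdk1 and Pdk2 to Pdk1 points are higher in Eed cKO, and the Pfkfb3 to Pfkfb4 and Slc16a3 to Slc16a1 points are lower, without overlap.

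Beyond the members, 76 other genes of the same branches were measured and 60 lay above the filter, of which 4 rose, 6 fell and 50 did not pass, with a median difference of -0.01. These shares, 6.67% up and 10.0% down, stand beside 9.63% and 6.0% of all tested genes. Pcx, the pyruvate carboxylase that turns pyruvate into oxaloacetate, gave 2463 and 2717 in Wt and 4489 and 4297 in Eed cKO and rose by 0.76 (SE 0.07, adjusted p = 0.000976). Slc16a7, the carrier MCT2 with high affinity for lactate and pyruvate, gave 581 and 577 in Wt and 965 and 959.6 in Eed cKO and rose by 0.70 (SE 0.08, adjusted p = 0.00174). Its Wt arrays lay under the filter intensity of 623, so that it was tested only through its level in Eed cKO, and its rise is a description. Pdp1, the phosphatase that turns pyruvate dehydrogenase back on, rose by 0.36 (SE 0.08, adjusted p = 0.0238). Prps2, which makes phosphoribosyl pyrophosphate from ribose 5-phosphate, rose by 0.50 (SE 0.07, adjusted p = 0.00524).

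Of the genes that fell, Pgam2, the muscle-type mutase, gave 1405 and 1264 in Wt and 805 and 613 in Eed cKO and had a difference of -0.89 (SE 0.13, adjusted p = 0.00556). The skeletal muscle markers had sums of 21649 to 22043 in Wt and 20688 to 21051 in Eed cKO, with 2 up and 1 down of 8, and their part in the Pgam2 difference was not tested. Ppp1r3c, which brings protein phosphatase 1 to glycogen, gave 4542 and 4891 in Wt and 3630.3 and 3603 in Eed cKO and had a difference of -0.38 (SE 0.06, adjusted p = 0.00752). Also lower were Gsk3a, a kinase that inhibits glycogen synthase, by 0.19, Rpia, the ribose 5-phosphate isomerase, by 0.38, H6pd, the hexose 6-phosphate dehydrogenase of the endoplasmic reticulum, by 0.24, and Minpp1, a phosphatase of 2,3-bisphosphoglycerate and inositol phosphates, by 0.19. Their adjusted p were 0.0169, 0.0246, 0.0269 and 0.0408. Without Wt 1 none of these 4 passed (adjusted p from 0.0576 to 0.268), nor did Pdp1 (0.0819). Without Wt 2, Gsk3a (0.0969), H6pd (0.111), Minpp1 (0.111) and Pdp1 (0.0563) did not pass, and without cKO 2 Minpp1 did not (0.0753). Minpp1 also lost its call without the filter (0.0537), and Gsk3a, H6pd and Minpp1 lost theirs without the intensity trend (0.0791, 0.0702 and 0.0868).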

How the data were processed

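RNA of 2 Wt and 2 Eed cKO samples, biological duplicates per the labels, was hybridised to Affymetrix arrays. For each of 35512 probe sets the authors deposited 1 intensity per array, in linear units. A supplementary sheet is named for dChip signals, with the background correction, normalization and annotation build not given in the sources used here. Another table repeated these intensities beside the authors' ratios of Eed cKO to Wt, and those ratios were left unused. RefSeq gene names of GRCm38.p6 replaced older ones. Accessions matched 18664 probe sets, symbols 2420 and older names 1957, and of the rest 2134 kept the deposited name and 10337 had no name.

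A gene was represented by its brightest probe set (mean log2), and genes below the 33rd percentile of brightness were dropped. Values of log2(intensity + 32) entered limma 3.58.1 under R 4.3.3, using lmFit and eBayes (trend by intensity), with group as the single term. Tests were two-sided, with Benjamini-Hochberg adjustment over 14944 genes, and the fit was tested on simulated data. The pseudocount shrinks differences of dim genes. As the labels do not say whether samples were separate animals or pools, p-values measure only the spread between these samples, and precision is limited by the number of arrays. All members are named, with Eed, Hif1a and the 10 other pathway genes past the threshold. Members and lists were chosen with earlier results of these data known. Alternatives changed the pseudocount, filter, probe set rule, normalization, source table, variance model, test, replicate block and arrays used, and the one with each member's dimmest probe set was chosen after seeing the data.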

Additional observations from a re-analysis of the deposited data

How the results depend on the processing

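No call of a member changed with a smaller or larger pseudocount, without a filter, with quantile normalization or with the series' value table. A filter at the 50th percentile kept 33 members with unchanged calls. It dropped Aldoc, which fell in the main fit, and Pfkfb4, so that 13 members fell. Without a filter the other pathway gene Minpp1 lost its call (adjusted p = 0.0537). Without the intensity trend, 575 genes in place of 897 fell, 3 in place of 6 other pathway genes fell, and Tpi1, Pgam1, Ldha and Taldo1 lost their calls. With the unpaired t-test after Benjamini-Hochberg adjustment, 2 genes rose and 2 fell among all tested. The counts were 0 and 0 among the members and 0 and 0 among the other pathway genes. At an unadjusted p under 0.05 the t-test gave 1740 higher and 1201 lower genes in all, 3 and 14 members and 3 and 5 other pathway genes. Leaving out each array in turn, with a lone array assumed to vary like the other group, gave 931 to 1580 genes that rose and 395 to 1203 that fell. The lowest of these came without Wt 1 and without Wt 2, in that order, and both highest without cKO 1. The ranges were 2 to 4 members that rose, 11 to 16 members that fell, 3 to 7 and 2 to 7 other pathway genes that rose and fell, and -0.13 to -0.11 for the members' median. Of the members without a call 3 changed sign, Hk1 (-0.035 to 0.017), Eno2 (-0.22 to 0.75) and Ldhb (-0.11 to 0.37). The cause was not tested. Eno1 gained a call with the mean of its probe sets (-0.09, adjusted p = 0.0488). Between the deviations of same-numbered arrays the correlation over the tested genes was -0.005, which cannot show that the samples were unpaired. Per the study's methods, control and cKO mice were compared as littermates. Arrays of the same number differed in Xist and Ddx3y, and each fit that left an array out made these unequal between the groups. The part of this in the changed calls was not tested. With the replicate block 1539 genes rose and 991 fell, and 4 members rose and 15 fell (Slc16a1 gained a call, adjusted p = 0.0386). The SD over genes of the log2 difference between arrays of one group, 0.121 for Wt and 0.155 for Eed cKO, limits what a pair of arrays can show.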
